A study of Homo sapiens with 6 samples.

Results

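Lipins, enzymes that make or exchange phospholipid head groups and the acyltransferase LPCAT3 were examined as a set of 10 genes in MDA-MB-231 cells with DAXX knocked down. The 10 genes were taken by name, as LPIN1, LPIN2, LPIN3, PTDSS1, PTDSS2, PCYT1A, PCYT2, PISD, CHKA and LPCAT3, and all 10 were found among the 22465 genes tested. Each was measured by 1 transcript cluster, a group of array probes that the annotation pairs with that symbol alone. MDA-MB-231 is an established triple-negative breast cancer cell line. The shDAXX cells (3 cultures) carried 1 lentiviral short hairpin RNA against the DAXX coding sequence, driven by the human H1 promoter, and the shControl cells (3 cultures) a scrambled hairpin. Both populations had been selected with puromycin at 2 µg/ml and were cultured for 24 h before harvest in complete DMEM, which the study's methods define as containing bovine calf serum. Total RNA was hybridized to Affymetrix Human Transcriptome Array 2.0, 1 array per culture. The hairpins were stably expressed in transduced populations, and the sources used here do not say how many separate transductions the 3 cultures represent. The p-values therefore measure the spread between these cultures.

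The lipins and head group enzymes act where glycerolipid synthesis divides. Lipins remove the phosphate from phosphatidate, which gives diacylglycerol for triacylglycerol, phosphatidylcholine and phosphatidylethanolamine, and LPIN1 also acts in the nucleus as a regulator of transcription. Choline and ethanolamine are phosphorylated and then activated as CDP-choline and CDP-ethanolamine before transfer to diacylglycerol. Phosphatidylserine is made by exchange of serine for the head group of an existing phospholipid and can be decarboxylated in mitochondria to phosphatidylethanolamine, while acyltransferases such as LPCAT3 set the acyl chains of finished phospholipids.

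DAXX, the histone H3.3 chaperone targeted by the hairpin, had signals of 6.69, 6.67 and 6.61 in shDAXX cells, against 7.49, 7.48 and 7.43 in shControl cells. All signals are log2 values from RMA, the authors' background correction, normalization and probe summary. DAXX itself was thus lower on every shDAXX array (-0.81 on the log2 scale, SE 0.06, adjusted p = 4.89e-04 in limma). Array medians were 4.96 to 5.07, and arrays of the same group correlated at 0.9959 to 0.9965, those of different groups at 0.9907 to 0.9922. VIM, CD44, EGFR and AXL, high in this mesenchymal-like line, had mean signals of 12.81 to 15.78 in shDAXX and 12.94 to 16.01 in shControl cells, whereas the hormone receptor genes ESR1 and PGR lay at 4.04 to 4.52 in shDAXX and 4.04 to 4.53 in shControl cells, below the table median of 4.99. Means of 8 markers of leukocytes, endothelium and fibroblasts lay at 4.39 to 6.35 in shDAXX and 4.37 to 5.98 in shControl cells, with CDH5 called higher and PTPRC lower, and their part in the results was not tested. In these bulk RNA samples fewer expressing cells and less RNA per cell cannot be told apart.

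DAXX knockdown was accompanied by changes in both directions among the 10 genes. LPCAT3, LPIN1, LPIN2 and PCYT2 fell, PTDSS1, PTDSS2 and CHKA rose, and LPIN3, PCYT1A and PISD did not pass the test. In limma, with a call at a Benjamini-Hochberg adjusted p under 0.05 over all genes, 7 of the 10 genes were called, against 9.90% of all 22465 genes. By direction 3 were called higher, where 4.30% of all genes were, and 4 lower, where 5.60% were. In a fit of only the 14888 genes above the median cluster signal in either group, 1274 were called higher and 1649 lower. That is a larger share than over all genes, and the calls among the 10 genes were the same. The shDAXX and shControl arrays did not overlap for the same 7 genes, as for 28.7% of all genes. The median log2 fold change of the 10 genes was 0.033, against 0.0067 over all genes, while the median size of change irrespective of sign was 0.725, against 0.113. Of all called genes 56.5% were lower in shDAXX cells, a share that was 43.7% after quantile normalization and 63.6% with equal array medians, but all 7 calls and their directions were the same under both scalings.

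**Figure D1:**
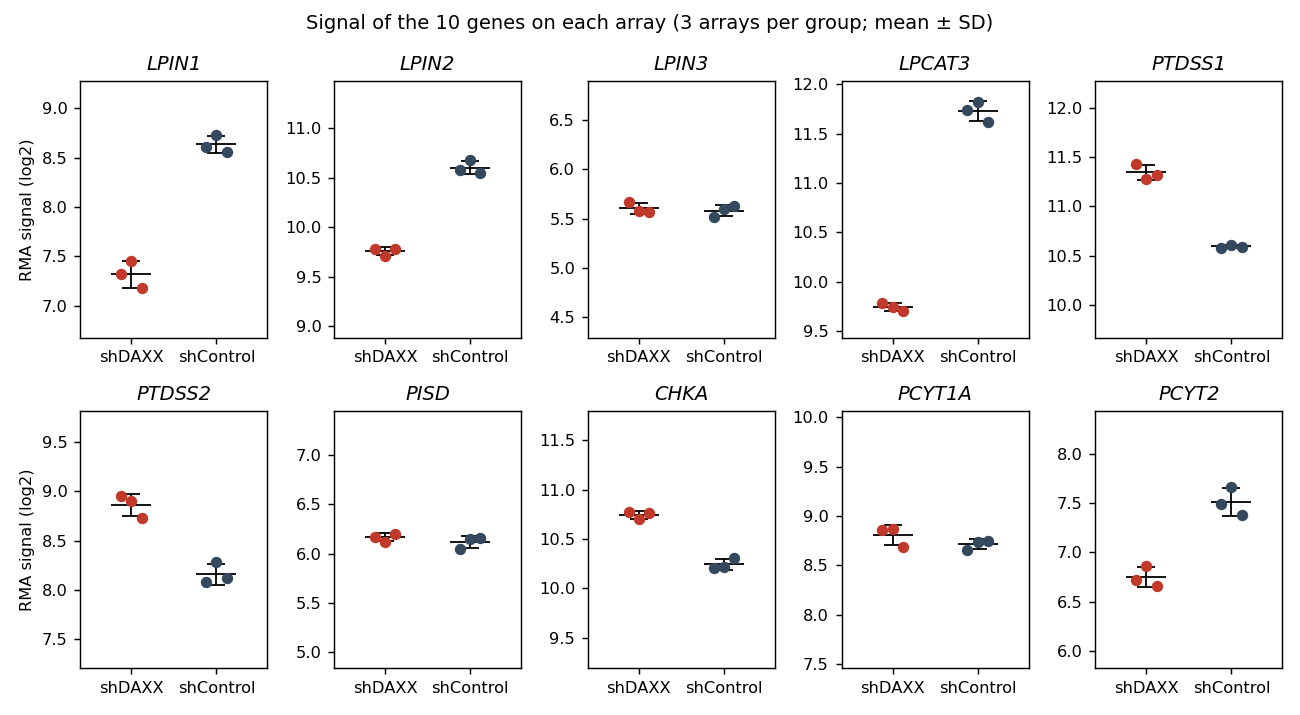
RMA signal (log2, vertical axis) of each of the 10 genes on the 3 shDAXX arrays (left, red) and the 3 shControl arrays (right, grey-blue), with the mean and SD drawn as a bar and whiskers. Every panel spans the same number of log2 units, and the groups stand apart for 7 genes and overlap for LPIN3, PISD and PCYT1A.

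Since 4 of the genes fell together, the sequences before their transcription start sites are shown. RefSeq windows for GRCh38.p14, each of 300 bases with 250 before and 50 after a start, were matched by symbol for 7 of the 10 genes, with 13 windows in all, and not for CHKA, PTDSS1 and LPIN3. Each stretch below is the 250 bases before the start, read 5′ to 3′ on the gene's strand. Where a gene has several starts the window shown is the one with the most matches or, in a tie, the first listed. Capitals mark TCACNCC, the core of a sterol regulatory element, CCAAT, the box bound by NF-Y, which acts together with SREBP at many lipid genes, and CACGTG, an E-box, each searched on both strands.
LPIN1, chr2:11746382-11746631, strand plus: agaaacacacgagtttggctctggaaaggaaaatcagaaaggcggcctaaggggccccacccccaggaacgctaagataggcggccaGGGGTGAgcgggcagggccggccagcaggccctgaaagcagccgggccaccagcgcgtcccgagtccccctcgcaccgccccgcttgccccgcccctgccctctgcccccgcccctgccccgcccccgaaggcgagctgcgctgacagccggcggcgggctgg
LPIN2, chr18:3013145-3013394, strand minus: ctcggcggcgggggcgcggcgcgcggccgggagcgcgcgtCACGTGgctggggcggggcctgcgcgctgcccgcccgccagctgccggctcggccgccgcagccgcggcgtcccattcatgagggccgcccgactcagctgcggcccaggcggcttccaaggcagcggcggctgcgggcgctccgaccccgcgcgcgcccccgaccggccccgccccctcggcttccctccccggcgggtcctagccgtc
PCYT2, chr17:81911400-81911649, strand minus: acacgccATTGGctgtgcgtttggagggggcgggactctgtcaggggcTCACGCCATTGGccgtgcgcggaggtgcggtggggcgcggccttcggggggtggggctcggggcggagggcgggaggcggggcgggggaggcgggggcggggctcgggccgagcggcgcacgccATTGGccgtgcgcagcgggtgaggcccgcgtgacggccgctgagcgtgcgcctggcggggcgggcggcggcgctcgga
LPCAT3, chr12:7018477-7018726, strand minus: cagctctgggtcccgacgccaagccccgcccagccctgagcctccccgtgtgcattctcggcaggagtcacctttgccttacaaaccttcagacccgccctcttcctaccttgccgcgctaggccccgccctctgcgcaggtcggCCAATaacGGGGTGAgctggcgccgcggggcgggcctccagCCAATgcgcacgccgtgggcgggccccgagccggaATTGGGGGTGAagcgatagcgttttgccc

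LPCAT3, which has 1 window, held 3 CCAAT and 2 TCACNCC matches, and 1 of each shared a base. PCYT2 held 3 CCAAT matches and 1 TCACNCC match in 1 of 2 windows and none of these motifs in the other. In the window shown the TCACNCC match ends directly before a CCAAT box that lies on the opposite strand and reads ATTGG on the strand printed. LPIN1 held 1 TCACNCC match and no CCAAT box in the window shown, another TCACNCC match in 1 of the other windows and no match in the remaining one. LPIN2 held 1 CACGTG and neither of the other motifs in 1 of 2 windows, and no match in the other window. Among all 35116 RefSeq windows of the same length 15.5% held TCACNCC, 34.6% held CCAAT, 7.3% held CACGTG, and 3.26% held at least 3 CCAAT matches. At least 3 CCAAT matches together with TCACNCC, as in the LPCAT3 window and the PCYT2 window shown, were found in 0.49% of windows, and at least 2 TCACNCC matches, as in LPCAT3, in 1.65%. These shares are counted per window, whereas the windows shown for LPIN1, LPIN2 and PCYT2 were picked for having the most matches. The repeated and combined patterns describe what the LPCAT3 and PCYT2 windows hold, so their shares are no test of these genes. Of genes that rose or were not called, PTDSS2 had 2 CACGTG matches in 1 of 2 windows, PISD had 1 CCAAT match in 1 of 2, and PCYT1A had none of the motifs. The 9-letter TCACNCCAC, which 1.1% of windows held, was found in none of the 13. A match is a run of letters, and occupancy by a factor was not measured on these arrays.

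Among the lipins LPIN1 and LPIN2 fell, and LPIN3 did not pass the test. LPIN1 encodes the lipin known to hold mature SREBP away from DNA when it is in the nucleus. Its signals were 7.32, 7.45 and 7.18 in shDAXX cells, against 8.61, 8.73 and 8.56 in shControl cells. Every shDAXX array was more than 1 log2 unit below every shControl array. LPIN1 averaged 7.32 ± 0.135 in shDAXX and 8.63 ± 0.0874 in shControl cells (SD, n = 3 each), a difference of -1.32 on the log2 scale (SE 0.0897, adjusted p = 3.31e-04 in limma) that corresponds to 2.49-fold lower. By size of change LPIN1 had rank 102 of the 22465 genes.

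LPIN2, the paralog whose loss causes an autoinflammatory bone disease in humans, also fell. It had 9.78, 9.71 and 9.78 in shDAXX cells, against 10.58, 10.68 and 10.55 in shControl cells, so that the groups were separated by far more than the spread within either. The difference was -0.85 on the log2 scale (SE 0.0654, adjusted p = 5.76e-04 in limma), or 1.80-fold lower. LPIN3, the remaining member of the family, had 5.67, 5.58 and 5.57 in shDAXX cells, against 5.52, 5.60 and 5.63 in shControl cells, and the groups overlapped. Its log2 fold change was 0.02 with a 95% interval of -0.132 to 0.178 (limma adjusted p = 0.88), and its sign turned with equal array medians (-0.003). Both means, 5.61 in shDAXX and 5.58 in shControl cells, were not far above the table median of 4.99.

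Whether related enzymes differed in their response was asked of 5 pairs, by comparing the difference between the paired genes within each array. The change of LPIN1 was lower than that of LPIN3 (difference -1.34 log2 units, SE 0.101) and lower than that of LPIN2 (difference -0.47, SE 0.0993), and that of LPIN2 was lower than that of LPIN3 (difference -0.87, SE 0.0589). In each of these 3 pairs the shDAXX and shControl arrays did not overlap. The two-sided exact permutation test gave p = 0.10 for each, the smallest that 3 against 3 arrays allow, and 0.125 adjusted over the 5 pairs, so this design cannot pass the threshold.

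**Figure D2:**
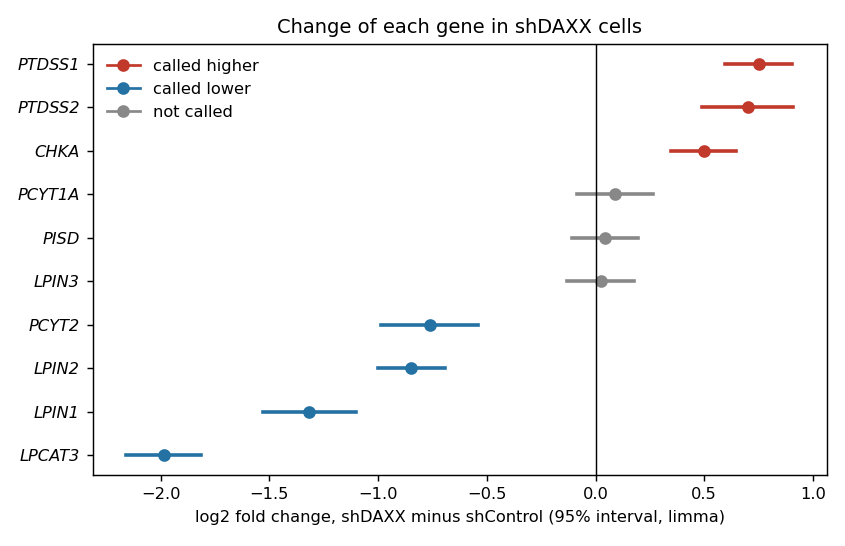
Log2 fold change, shDAXX minus shControl (horizontal axis, points), with its 95% limma interval (lines) for the 10 genes, ordered from the highest to the lowest. The intervals of PTDSS1, PTDSS2 and CHKA lie above 0, those of PCYT2, LPIN2, LPIN1 and LPCAT3 below it, and those of PCYT1A, PISD and LPIN3 span it.

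The phosphatidylserine synthases rose. PTDSS1, which exchanges serine for the choline of phosphatidylcholine, had 11.43, 11.28 and 11.32 in shDAXX cells, against 10.58, 10.61 and 10.59 in shControl cells. The lowest shDAXX array was thus well above the highest shControl array, and the rise was 0.75 on the log2 scale (SE 0.0654, adjusted p = 9.61e-04 in limma), or 1.68-fold. PTDSS2, which exchanges serine for the ethanolamine of phosphatidylethanolamine, had 8.95, 8.90 and 8.73 in shDAXX cells, against 8.08, 8.28 and 8.12 in shControl cells. The groups did not overlap here either, and the rise was 0.70 on the log2 scale (SE 0.0882, adjusted p = 0.00408 in limma), or 1.62-fold. The changes of both synthases differed by 0.05 log2 units (PTDSS1 minus PTDSS2, SE 0.0801, two-sided exact permutation p = 0.60, also 0.60 adjusted over the 5 pairs). The within-array differences of the groups overlapped, which does not show that both genes changed alike.

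PISD, the mitochondrial decarboxylase that turns phosphatidylserine into phosphatidylethanolamine, had 6.17, 6.12 and 6.20 in shDAXX cells, against 6.05, 6.15 and 6.16 in shControl cells. The groups overlapped, and the log2 fold change was 0.04 with a 95% interval of -0.108 to 0.195 (limma adjusted p = 0.755). The interval therefore does not reach the rises of PTDSS1 and PTDSS2, although no test compared PISD with them.

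In the CDP-choline and CDP-ethanolamine branches CHKA rose, PCYT2 fell and PCYT1A did not pass the test. CHKA, a choline kinase that takes the first step, had 10.77, 10.70 and 10.76 in shDAXX cells, against 10.21, 10.22 and 10.31 in shControl cells. All shDAXX arrays were above all shControl arrays, with a rise of 0.50 on the log2 scale (SE 0.0627, adjusted p = 0.0041 in limma), or 1.41-fold, the smallest change among the called genes of the set. PCYT1A, the enzyme that makes CDP-choline and is usually rate-limiting for phosphatidylcholine synthesis, had 8.86, 8.87 and 8.69 in shDAXX cells, against 8.66, 8.74 and 8.75 in shControl cells. Those groups overlapped, and the log2 fold change was 0.09 with a 95% interval of -0.086 to 0.266 (limma adjusted p = 0.54).

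PCYT2 makes CDP-ethanolamine. Its signals were 6.72, 6.86 and 6.66 in shDAXX cells, against 7.49, 7.66 and 7.38 in shControl cells, so every shDAXX array was below every shControl array. The difference was -0.76 on the log2 scale (SE 0.0944, adjusted p = 0.00381 in limma), or 1.70-fold lower. The changes of PCYT2 and PCYT1A differed by -0.853 log2 units (PCYT2 minus PCYT1A, SE 0.0948), again without overlap of the within-array differences and again at the smallest exact permutation p of 0.10 (two-sided, 0.125 adjusted over the 5 pairs).

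LPCAT3, the acyltransferase that places polyunsaturated chains on lysophospholipids and is a known target of the sterol-activated receptor LXR, had the largest change of the set. It had 9.78, 9.74 and 9.70 in shDAXX cells, against 11.74, 11.82 and 11.62 in shControl cells. The gap between the groups was many times the range within either. LPCAT3 averaged 9.74 ± 0.04 in shDAXX and 11.73 ± 0.101 in shControl cells (SD, n = 3 each), a difference of -1.99 on the log2 scale (SE 0.073, adjusted p = 2.44e-05 in limma), or 3.96-fold lower, with rank 36 of the 22465 genes by size of change.

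Whether a gene moved with its surroundings was described by setting it beside the 10 measured genes on either side of it in RefSeq gene order. Of the 20 neighbours of LPCAT3, 8 were called lower and 2 higher, where 5.60% and 4.30% of all genes were. The median log2 fold change of these neighbours was -0.165. LPCAT3 lay 1.82 log2 units below that median (member minus median -1.822) and below the lowest neighbour, the small Cajal body RNA gene SCARNA12 at -1.15. SCARNA12, EMG1 (-0.35) and PHB2 (-0.61) lay directly on one side of LPCAT3, and on the other lay the complement protease genes C1S and C1R, both called higher, at 0.38 and 0.63. With 20 genes on either side, 17 of 40 were called lower and 2 higher. Whether the shift of its neighbours has a part in the fall of LPCAT3 was not tested.

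**Figure D3:**
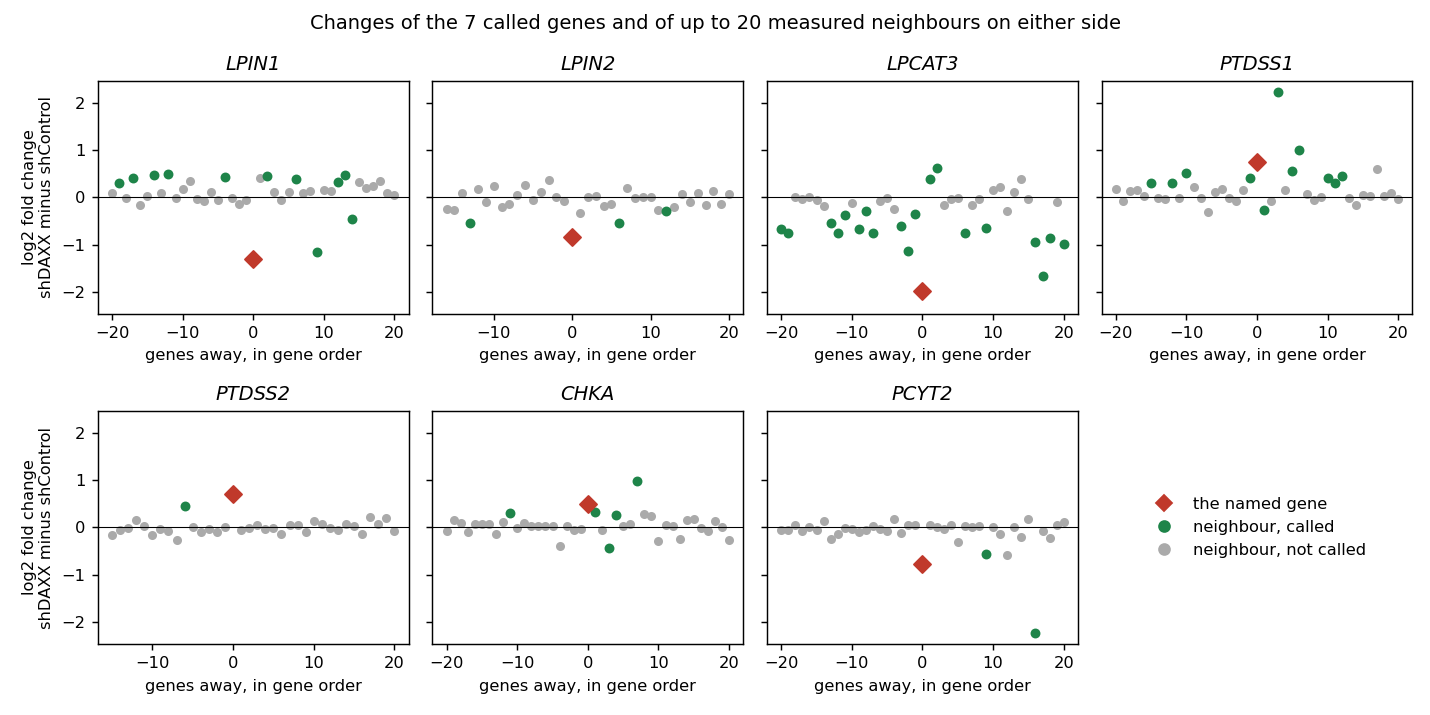
Log2 fold change, shDAXX minus shControl (vertical axis), of the 7 called genes (red diamonds) and of up to 20 measured genes on either side (circles, green where called), against their position in RefSeq gene order (horizontal axis, number of genes away). Many neighbours of LPCAT3 lie below 0, whereas the neighbours of LPIN2, PTDSS2 and PCYT2 mostly lie near it.

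Around the other genes the medians of the 20 neighbours were between -0.115, at LPIN3, and 0.137, at PTDSS1. PTDSS1 stood among 6 neighbours called higher and 1 called lower, the highest of them TSPYL5 at 2.23, and lay 0.61 above the neighbours' median. LPIN1 fell within a neighbourhood whose median was 0.112, with 3 genes called higher and 1 lower. Over all genes 4.30% were called higher and 5.60% lower. For LPIN2, PTDSS2 and PCYT2 only 1 of 20 neighbours was called in each case. FASN, the fatty acid synthase gene, lay 16 measured genes from PCYT2 and had a log2 fold change of -2.24, and CPT1A, the carnitine acyltransferase of mitochondrial fatty acid uptake, lay 7 genes from CHKA at 0.99. FASN and CPT1A were picked out after their values were seen.

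Of the other enzymes of glycerolipid and phospholipid metabolism, 64 of 67 listed genes were measured, and 6 were called higher and 9 lower (23.4% called, beside 9.90% of all genes). The 9.90% includes dim genes. When these were left out the share called was larger, with 1274 higher and 1649 lower of 14888 genes. The 23.4% was not tested against either share and is not read as an excess. The median log2 fold change of the 64 was -0.068. Of these 15 calls 8, those of GPAT3, AGPAT4, PLPP3, SELENOI, CDS1, CDIPT, TRIAP1 and ATP8A1, were lost when one or another array was left out, with the direction kept. Of 10 genes that make phosphatidate and triacylglycerol, 2 were called higher and 2 lower, with a list median of 0.107. The glycerol-3-phosphate acyltransferase GPAT4 rose by 0.60 (SE 0.0721, limma adjusted p = 0.00347) and AGPAT5 by 0.66, while GPAT3 (-0.32) and AGPAT4 (-0.37) fell. The diacylglycerol acyltransferase genes DGAT1 (0.09) and DGAT2 (0.13), which use the product of the lipins, did not pass.

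Among lipin partners, other lipid phosphatases and diacylglycerol kinases, 1 of 11 was called higher and 1 lower (median -0.003). DGKA, a kinase that turns diacylglycerol back into phosphatidate, had 8.27, 8.32 and 8.29 in shDAXX cells, against 8.78, 9.03 and 8.94 in shControl cells. It was lower on every shDAXX array (-0.62, limma adjusted p = 0.00424), and the phosphatase gene PLPP3 was higher (0.29). CTDNEP1 and CNEP1R1, which form the phosphatase that activates lipins, had log2 fold changes of -0.22 and 0.09 and did not pass.

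The choline and ethanolamine branch outside the set had 1 of 13 genes higher and 2 lower (median -0.08). ETNK1, the ethanolamine kinase upstream of PCYT2, had 9.07, 8.87 and 8.88 in shDAXX cells, against 9.74, 9.93 and 9.99 in shControl cells. At -0.95 on the log2 scale (SE 0.0937, adjusted p = 0.00153 in limma) it fell together with PCYT2, whereas SELENOI, the ethanolamine phosphotransferase downstream of PCYT2, rose (0.45). ETNK1 lies on chromosome 12, as do LPCAT3, DGKA, which also fell, and TRIAP1, which rose. Of the 20 neighbours of ETNK1, 9 were called lower (median -0.173), where 5.60% of all genes were, and their part in its fall was not tested. Around DGKA 3 of 20 neighbours were called lower (median -0.115). Around TRIAP1 1 of 20 was called lower and 1 higher (median 0.027). The choline transporter gene SLC44A2 fell (-0.44). CHKB, a further choline kinase gene, was lower on every shDAXX array but did not pass (-0.27, limma adjusted p = 0.0684). The transferase genes CHPT1 (0.19) and CEPT1 (0.24) and the phosphatidylethanolamine methyltransferase gene PEMT (-0.04) did not pass.

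**Figure D4:**
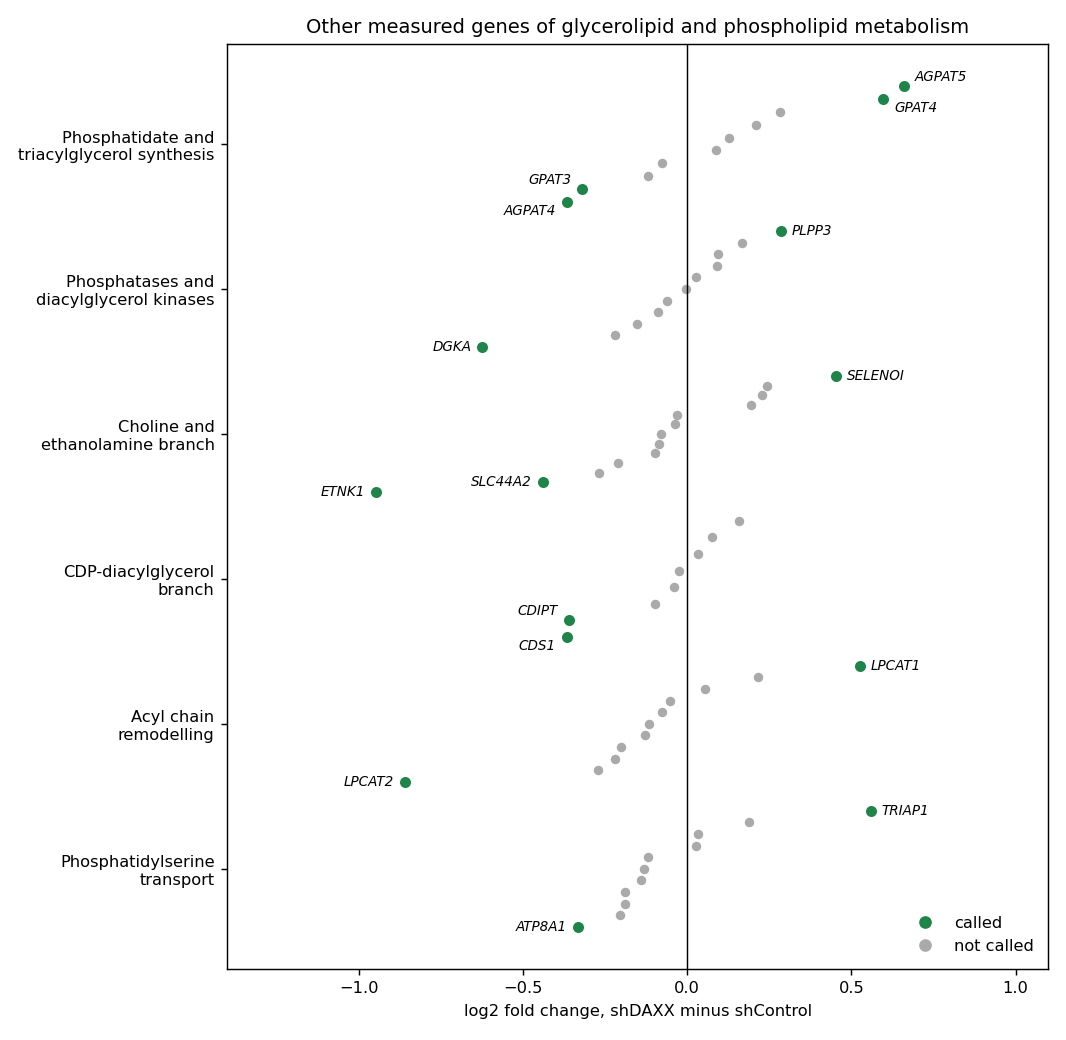
Log2 fold change, shDAXX minus shControl (horizontal axis), of 64 other measured genes of glycerolipid and phospholipid metabolism in 6 lists (rows), with called genes in green and named. The 15 called genes lie on both sides of 0, from ETNK1 at -0.95 to AGPAT5 at 0.66.

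In the CDP-diacylglycerol branch, which leads to phosphatidylinositol and cardiolipin, 2 of 8 genes were called, both lower (list median -0.032). They were the synthase genes CDS1 (-0.37) and CDIPT (-0.36). CDS1 had means of 5.16 in shDAXX and 5.53 in shControl cells, not far above the table median of 4.99. Its paralog CDS2, with means of 9.86 and 9.95, did not pass (-0.10, limma adjusted p = 0.507). Among 11 other genes of acyl chain remodelling, LPCAT2 fell (-0.86, SE 0.0944, limma adjusted p = 0.00233) and LPCAT1 rose (0.53, limma adjusted p = 0.011), with a median of -0.117. LPCAT2 had 10.25, 10.41 and 10.23 in shDAXX cells, against 11.10, 11.32 and 11.05 in shControl cells, so that, as for LPCAT3, every shDAXX array was below every shControl array. Of 11 genes of phosphatidylserine transport and exposure, 1 was called higher and 1 lower (median -0.13). They were TRIAP1 (0.56), a partner of mitochondrial phospholipid transfer proteins, and the aminophospholipid flippase gene ATP8A1 (-0.33).

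Among 8 measured genes that regulate these enzymes, 2 were called, both lower. SREBF2, which encodes SREBP2, had 6.60, 6.64 and 6.63 in shDAXX cells, against 8.08, 8.31 and 8.06 in shControl cells, a difference of -1.53 on the log2 scale (adjusted p = 1.35e-04 in limma). SREBF1 fell by 0.73 (limma adjusted p = 0.00233). Neither NR1H3, which encodes an LXR (-0.06), nor NR3C1, the glucocorticoid receptor gene (-0.05), nor PPARGC1A, a coactivator that binds lipin-1 (-0.15), passed. NR1H2, a further LXR gene, was on the list but was not among the genes tested.

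Over the 6 arrays the profiles most like that of LPIN1, each gene centred on its own mean, were those of ACLY, SEL1L3 and PHC1. Their root mean square differences from LPIN1 were 0.052, 0.069 and 0.079 log2 units. ACLY makes cytosolic acetyl-CoA for lipid synthesis and had a log2 fold change of -1.28. The profiles most like that of PTDSS1 were those of PCDH7, SERPINA1 and TTC17, at 0.041, 0.048 and 0.054 log2 units, with log2 fold changes of 0.77, 0.80 and 0.80. These likenesses describe 6 arrays that fall into only 2 groups.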

How the data were processed

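Values were those that the authors deposited for 6 arrays, log2 RMA signals per transcript cluster. Per the labels, Affymetrix Expression Console was used; its version, the genome build and whether the described batch correction was applied here are not given in the sources used here. The log base was taken from the values (1.88 to 19.52). Of 70523 rows, 67528 were transcript clusters and 23781 had 1 gene symbol; 21497 of these matched RefSeq (GRCh38.p14) by gene ID. The cluster with the highest mean was kept for the 479 genes with several, leaving 22465 genes. Fits used limma 3.58.1 in R 4.3.3 (lmFit, eBayes, no covariates, shDAXX minus shControl, two-sided, Benjamini-Hochberg over all genes, threshold 0.05), checked on simulated data. The members and gene lists were chosen with earlier results of these data known. Besides the members, the naming rule took DAXX, SREBF1, SREBF2, up to 2 called genes per direction of each list, cell type markers and the 3 profiles most like LPIN1 and PTDSS1. Neighbouring genes and list genes that did not pass were named after their values were seen. The number of arrays limits the precision.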

Additional observations from a re-analysis of the deposited data

How the results depend on the processing

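All 7 called genes kept their direction and call under the 16 alternatives run (limma and the methods' t-test, adjusted p at most 0.038 where one was adjusted), so 3 were higher and 4 lower each time, also with 1 array left out. Deviations of arrays with the same replicate number correlated at -0.091, 0.221 and 0.081, and those with different numbers at -0.217 to 0.131. So few values cannot settle whether the numbers pair the arrays. With the number as a replicate block 606 genes were called higher and 868 lower over all genes, and no call among the 10 genes changed. LPIN3, never called, had log2 fold changes of -0.003 with equal array medians and of -0.008 to 0.047 with 1 array left out; the direction of LPIN3 is therefore not settled. Over all genes limma called 967 higher and 1257 lower, against 515 to 609 and 722 to 857 without 1 array. With equal array medians 617 were called higher, and the methods' t-test after adjustment called 707 and 811. When all 67528 transcript clusters were fitted and adjusted together, 345 and 511 of the clusters with 1 symbol were called. More genes were called with dim genes left out (1274 and 1649) and with the trend and robust options of eBayes (1208 and 1554). Quantile normalization gave 1427 higher and 1108 lower. The pair differences without 1 array were -0.56 to -0.39 (LPIN1 minus LPIN2), -1.42 to -1.29 (LPIN1 minus LPIN3), -0.92 to -0.84 (LPIN2 minus LPIN3), -0.935 to -0.79 (PCYT2 minus PCYT1A) and -0.003 to 0.102 (PTDSS1 minus PTDSS2). With 5 or 20 neighbours on either side the median around LPCAT3 was -0.103 and -0.178. Of the 15 other called pathway genes, 4 (GPAT4, DGKA, ETNK1 and LPCAT2) were called under all 16 alternatives, and 8 lost the call without some array. PLPP3 (0.268 to 0.308 on the log2 scale) and TRIAP1 (0.438 to 0.647) lost it without any 1 of the 6 arrays. GPAT3 (-0.358 to -0.293) and ATP8A1 (-0.383 to -0.293) kept it only without shControl 1, AGPAT4 (-0.42 to -0.307) and CDIPT (-0.395 to -0.32) only without shDAXX 2, and CDS1 (-0.405 to -0.345) only without shDAXX 1 or shControl 3. SELENOI (0.412 to 0.522) lost it without shDAXX 1, shControl 1 or shControl 3. RMA compresses changes of genes with low signal, which limits what an uncalled value says. LPIN3 and PISD had the lowest signals of the 10 genes, although above the table median of 4.99 in both groups. That median includes clusters without a gene symbol. Among the genes tested, 48.3% had a lower mean signal than LPIN3 and 54.7% a lower one than PISD.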
